A study of Mus musculus with 4 samples.

Results

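Of the 12486 genes in the PRO-seq count table, 10 are described here: Xrn1 and its nuclear relative Xrn2, the decapping enzyme Dcp2 and its partners Dcp1a, Dcp1b, Edc3 and Edc4, and the decapping activators Lsm1, Patl1 and Ddx6. They were taken by gene name. After depletion of the zinc-finger protein Zfp574, transcription over Xrn1 was at 14.5% of its control level, relative to genes as a whole. The log2 fold changes of the other 9 genes lay between -0.10 and 0.47. None of these 9 was called at 2-fold, beside 0.321% (lower) and 0% (higher) of all genes tested. Xrn1 was known to have fallen in the comparison used below when this group was put together, so the members' own changes are given as a description, without a test. PRO-seq maps engaged RNA polymerase by extending nascent RNA in isolated nuclei, and a count is 1 such molecule within a gene, not a measure of the mature mRNA.

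The cells were diploid mouse embryonic stem (mES) cells in which Zfp574 carried an N-terminal auxin-inducible degron (AID) tag, made in a parental line that expresses OsTir1 with ARF16-HA and mCherry from an EF1a promoter. Both conditions shared this genotype. The 0 h control was left untreated (n = 2 libraries) and the 6 h depletion received 500 μM of the auxin IAA (n = 2 libraries), so loss of Zfp574 and other effects of IAA cannot be told apart. Clones were picked singly to make the line, and untagged cells given IAA were not analysed here. Total counts ran from 3298864 to 3616429 in the control libraries and from 5670904 to 6045216 in the depletion libraries. Counts of Zfp574 itself were 80 and 130 at 0 h and 195 and 219 at 6 h, which do not measure the tagged protein. As a check on the label, 9 of 10 listed markers of mES cells had a row in the table. Together they made up 4207 to 4242 CPM (counts relative to library size) in the controls and 4162 to 4212 CPM at 6 h. CPM given for a list of markers use library totals, while CPM of single genes are also scaled by TMM. Of these markers 1, Utf1, was lower after depletion (log2 fold change -0.61, edgeR quasi-likelihood adjusted p = 0.00358). This call is without a fold threshold, and 1.40% of all genes were lower by the same rule. Listed fibroblast markers had 1 row of 8, at 0.496 to 2.21 CPM in the 4 libraries. Endoderm markers had 3 rows of 7, at 12.4 to 15.5 CPM in sum, and mesoderm and neural markers had 4 rows of 8, at 39.4 to 48.5 CPM.

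Most eukaryotic mRNAs are destroyed in steps. The poly(A) tail is shortened, the cap is removed by Dcp2 together with its activators, and the exposed 5′ end is then digested by Xrn1, the main cytoplasmic exonuclease that works from the 5′ end. Xrn2 does the same chemistry in the nucleus, where it takes part in transcription termination and in trimming of ribosomal and other noncoding RNAs.

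Since the readout is transcription, the promoter of Xrn1 is shown first. The 250 bases that precede its annotated start site are printed below beside those of Xrn2, whose level stayed near its control value. Both come from the RefSeq annotation of GRCm38.p6 (mm10), plus strand, at chr9:95954510-95954759 for Xrn1 and chr2:147012749-147012998 for Xrn2. Capitals mark an 8-base sequence, introduced next.

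Xrn1: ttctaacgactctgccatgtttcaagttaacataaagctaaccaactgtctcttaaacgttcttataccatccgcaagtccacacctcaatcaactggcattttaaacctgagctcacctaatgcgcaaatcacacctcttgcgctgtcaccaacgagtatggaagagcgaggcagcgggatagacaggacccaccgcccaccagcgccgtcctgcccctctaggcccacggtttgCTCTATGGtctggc
Xrn2: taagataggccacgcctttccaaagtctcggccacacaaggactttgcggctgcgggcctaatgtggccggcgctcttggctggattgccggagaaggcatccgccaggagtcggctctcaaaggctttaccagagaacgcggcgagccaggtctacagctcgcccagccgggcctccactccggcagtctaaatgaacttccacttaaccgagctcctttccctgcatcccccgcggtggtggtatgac

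The 8-base sequence was found without the 10 genes. Among 33 other genes that were lower after depletion (adjusted p under 0.05 and at least 2-fold) and that could be matched to a RefSeq promoter of 300 bases, it was the word, read on both strands, whose share most exceeded its share in all 9292 matched promoters. That word was CTCTATGG (CCATAGAG on the other strand). It occurred in 9 of the 33 promoters, or 27.3%, a share that the choice of the word makes high, and in 102 of all matched promoters, or 1.10%. Xrn1 held it 1 time, with its first base 14 bases before the start site. The 6 other members with a matched promoter (Xrn2, Dcp1a, Dcp1b, Edc3, Edc4 and Patl1) did not hold it. The next word in this ranking, CGCTCTAG, was not in the Xrn1 promoter.

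The sites are printed to show what Xrn1 shares with other genes that fell. Each has up to 10 bases on either side, is read in the direction that gives CTCTATGG, and has these 8 bases in capitals. The coordinates are mm10.

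Zkscan8, chr13:21531138-21531165, plus strand: ggtctgacagCTCTATGGtaggccagca
Xrn1, chr9:95954736-95954763, plus strand: ccacggtttgCTCTATGGtctggcggac
Ercc1, chr7:19345010-19345037, minus strand: tcgcgctgctCTCTATGGtcctggagga
Eef1akmt2, chr7:132852620-132852647, minus strand: caaatcgcgtCTCTATGGcggcttcgag
Nek4, chr14:30951292-30951319, plus strand: aggagcgaagCTCTATGGcaggtcctcc
Nek4, chr14:30951403-30951426, plus strand: gctaggtcgaCTCTATGGcgcgtc
Timm10, chr2:84826952-84826979, plus strand: aggtcggtttCTCTATGGtagccggttt
Polq, chr16:37011705-37011732, plus strand: tccctcaccaCTCTATGGtagtcgggtt
Rpl10, chrX:74270784-74270811, plus strand: ctggctgtaaCTCTATGGttgttacagt
Chpf2, chr5:24586699-24586726, minus strand: agtctcccgtCTCTATGGtgaccgcatc
Chpf2, chr5:24586656-24586683, minus strand: tacagtcgctCTCTATGGttgctgctgc
Trip11, chr12:101913133-101913160, minus strand: cgcgaagcttCTCTATGGtcactgccgc

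All 12 sites in the 10 promoters lay within 100 bases before the start site or after it. Among the 92 promoters of genes that held the word and were not called, 55 of 97 sites (56.7%) did. Of the 12 sites, 11 lie in promoters that the word was chosen on, so this contrast is no support for the word. Of the 102 genes that held the word, 10 were called lower, namely Xrn1 and the 9 that the word was chosen on, so this count is no support for the word. The 92 that were not called were centred on a median of -0.15 (log2), with 63 below 0, where the median of all genes tested was -0.002. Whether this difference goes with the word was not tested. The word is therefore neither present in every gene that fell nor followed by a call in most genes that carry it. Binding of Zfp574 was not measured in these libraries.

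**Figure D1:**
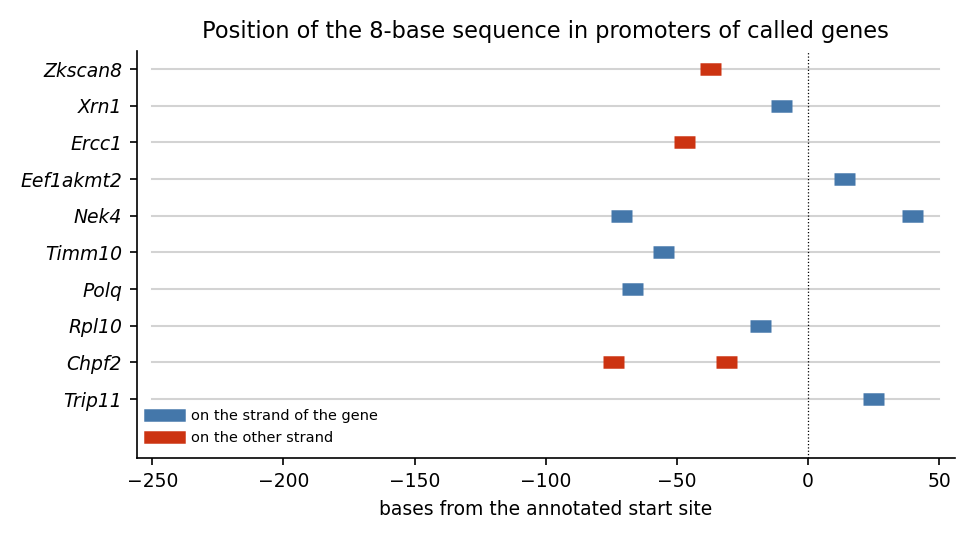
Each grey line is the promoter of a gene called lower, from 250 bases before to 50 bases after its annotated start (dotted line), and each bar is 1 copy of the 8-base sequence, blue on the strand of the gene and red on the other strand. The genes are ordered by log2 fold change. All 12 copies, 11 of them in promoters that the word was chosen on, lie in the 100 bases before the start or after it. The copy of Xrn1 lies 14 bases before its start.

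Short motifs of common promoter factors were also searched on both strands in the 7 matched member promoters. The Xrn1 promoter held the GC box GGGCGG, which 66.3% of all matched promoters hold, as did Edc3 and Patl1. It held none of CCAAT (39.0% of promoters), TATAAA (6.81%), CCGGAAG (19.3%), ATGGCGG (8.91%), GCATGCG (7.05%), TGACGT (12.5%), ACTACAA (4.38%), CACGTG (10.5%) or CTCGCGA (4.44%). The ETS core CCGGAAG was in 4 of the 7, namely Xrn2, Dcp1a, Dcp1b and Edc4, and Xrn2 also held TGACGT and CACGTG. The Xrn1 promoter had 55.0% G and C and a ratio of observed to expected CpG of 0.902. The medians of all matched promoters were 61.3% and 0.783. The G and C content of Xrn1 lay just under the lower quartile of these promoters (55.3%), near Edc4 (53.7%) and Edc3 (53.0%). Its CpG ratio lay above the median and under the upper quartile (0.923), near Xrn2 (0.868) and Dcp1b (0.893).

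Xrn1 (ENSMUSG00000032410, chr9:95954760-96057803, plus strand, mm10) was counted 542 and 605 times at 0 h but 140 and 135 times at 6 h, although the 6 h libraries were sequenced more deeply. These counts correspond to 163 and 165 CPM at 0 h against 23.5 and 24.0 CPM at 6 h. Both depletion libraries lay far below both controls, and replicates of a condition differed from each other by no more than 0.031 on the log2 scale. The log2 fold change was -2.79 ± 0.09 (SE, n = 2 libraries per condition), which leaves 14.5% of the control level (95% interval 12.8% to 16.5%). It was the lowest of the 2767 tested genes with a control mean of at least 100 CPM, and the third lowest of all 11853 genes tested.

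The fall of Xrn1 relative to the other 9 members did not rest on how libraries were scaled. Counts of the Drosophila spike-in were not used, so a shift shared by all genes would not show here. Set against the summed counts of the other 9 members in the same library, Xrn1 had 162 counts per 1000 in each of the controls, and 23.3 and 22.7 counts per 1000 after depletion. The 4 ratios of a depletion to a control library, taken this way, ran from -2.83 to -2.80 on the log2 scale. The summed counts of the other 9 genes came to 3355 and 3732 at 0 h against 6020 and 5942 at 6 h.

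With libraries scaled to genes as a whole, the other 9 members stayed near their control levels. Of the 10 genes, 1 was called lower at an adjusted p under 0.05 and at least 2-fold, beside 0.321% of all genes tested, and 0 were called higher, beside 0% of all genes. Without the fold threshold the counts were the same, 1 lower and 0 higher, beside 1.40% and 1.11% of all genes. Nothing is read from the 1 call, since Xrn1 was known when the group was formed. The median log2 fold change of the 9 was 0.01, and that of all genes was -0.002. Depletion and control libraries did not overlap for 3 members: both depletion values were lower for Xrn1 and Edc4 and higher for Xrn2. All genes showed such a separation in 22.9% (lower) and 23.4% (higher) of cases.

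**Figure D2:**
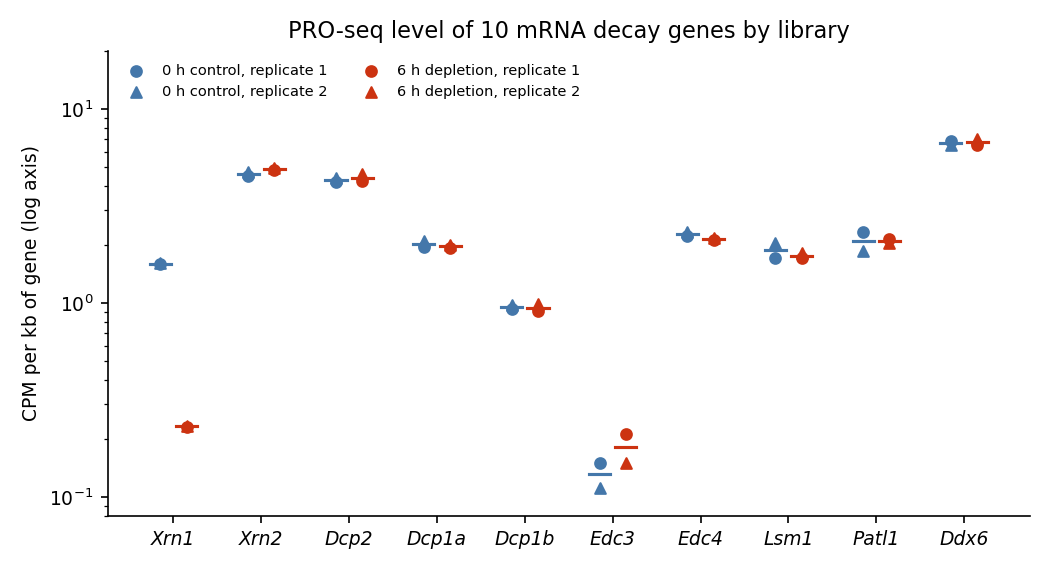
PRO-seq level of each of the 10 genes in CPM per kb of annotated gene, on a log axis, with 1 point per library (circle for replicate 1, triangle for replicate 2) and a bar at the mean of 2 libraries. Xrn1 drops from 1.59 to 0.231 CPM per kb, while the depletion points of the other genes lie beside their controls.

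Among the exonucleases, Xrn2 (ENSMUSG00000027433, chr2:147012996-147078000, plus strand) had 293 and 308 CPM at 0 h against 314 and 323 CPM at 6 h. Its depletion values were both slightly above its controls. The log2 fold change was 0.08 ± 0.06 (SE), with a 95% interval from -0.03 to 0.20, so a change of the size seen in Xrn1 lies far outside what these libraries allow for Xrn2.

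The decapping enzyme Dcp2 (ENSMUSG00000024472, chr18:44380502-44424969, plus strand), which hydrolyses the cap, had 188 and 195 CPM at 0 h against 190 and 205 CPM at 6 h. The 2 conditions overlapped, and the log2 fold change was 0.04 ± 0.06. Its coactivator Dcp1a (ENSMUSG00000021962, chr14:30479535-30527063, plus strand) had 92.0 and 99.6 CPM against 91.7 and 94.9 CPM (-0.04 ± 0.08). The paralog Dcp1b (ENSMUSG00000041477, chr6:119175253-119221616, plus strand) had 43.3 and 45.3 CPM against 42.0 and 45.6 CPM (-0.02 ± 0.11). None of these 3 genes had libraries of 1 condition clear of the other, and their 95% intervals reached from -0.24 to 0.20 at the widest, for Dcp1b.

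The enhancers of decapping differed mainly in depth. Edc4 (ENSMUSG00000036270, chr8:105880881-105894908, plus strand), a scaffold that brings Dcp1 and Dcp2 together, had 31.3 and 32.5 CPM at 0 h against 29.6 and 30.4 CPM at 6 h. Both depletion values were lower, by little, with a log2 fold change of -0.09 ± 0.12. Edc3 (ENSMUSG00000038957, chr9:57708540-57752499, plus strand), which binds Dcp2 and Ddx6, rested on few reads, 22 and 18 at 0 h against 55 and 37 at 6 h. This gave 6.61 and 4.91 CPM against 9.24 and 6.59 CPM, values that overlapped between conditions. Its log2 fold change, 0.47 ± 0.27, was the highest of the 10, and its interval ran from -0.09 to 1.03. The end of the gene is overlapped by Clk3 on the other strand. Reads were given the direction of transcription, but the methods do not say whether counting over genes was by strand. No change of Edc3 was detectable at this depth, and a rise of up to 2-fold cannot be told from none.

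Lsm1, Patl1 and Ddx6 act upstream of the decapping enzyme: Lsm1 is the subunit that sets the cytoplasmic Lsm ring apart from the nuclear one, Patl1 binds that ring, and Ddx6 is a DEAD-box helicase of P-bodies. Lsm1 (ENSMUSG00000037296, chr8:25785288-25803975, plus strand) had 31.9 and 38.2 CPM at 0 h against 31.8 and 33.8 CPM at 6 h (-0.10 ± 0.12). Patl1 (ENSMUSG00000046139, chr19:11912399-11945091, plus strand) had 76.3 and 60.3 CPM against 70.1 and 66.7 CPM (0.01 ± 0.10). Its controls differed from each other by more than its conditions did. Ddx6 (ENSMUSG00000032097, chr9:44604892-44640731, plus strand) had 246 and 235 CPM against 233 and 251 CPM (0.01 ± 0.06), with overlapping conditions.

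**Figure D3:**
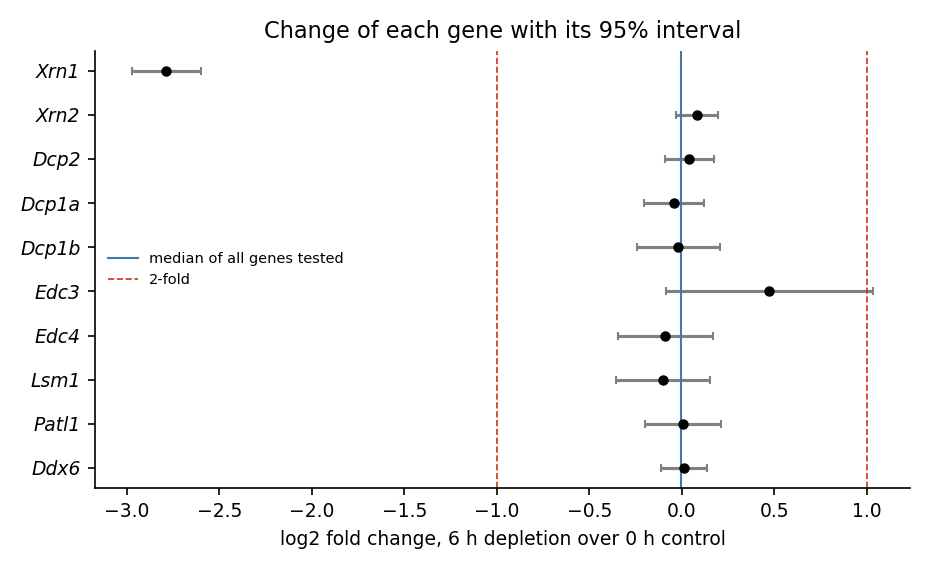
Log2 fold change of each gene (6 h depletion over 0 h control, points) with its 95% interval from the fit across all genes (bars). Xrn1 stands at -2.79, outside the dashed lines that mark 2-fold, and the other points lie between -0.10 and 0.47, with the widest interval for Edc3.

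Most of these small differences have no settled sign. Edc4 stayed below 0 in each of 13 alternative settings (-0.19 to -0.06) and Edc3 above 0 in each of the 12 that tested it (0.20 to 0.69), though neither was called in any. With size factors recovered from the mean signal the authors deposited, which moved the median of all genes to -0.11, Xrn2, Dcp2, Patl1 and Ddx6 went from above to below 0 (-0.02, -0.06, -0.09 and -0.09). Xrn1 stood at -2.89 under the same factors. Leaving out 1 library moved Patl1 between -0.16 and 0.18 and Lsm1 between -0.22 and 0.04, and also carried Dcp1a (-0.09 to 0.02), Dcp1b (-0.08 to 0.04) and Dcp2 (-0.01 to 0.10) across 0. Gene length also bears on differences of this size, since long genes had higher fold changes in these data. Against the median of its own class, when genes were split into 10 classes by length, Xrn1 differed by -2.84, Edc3 by 0.45, and the other 8 members by -0.07 to 0.03.

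Per kb of annotated gene, the 10 loci spanned a wide range of transcription before depletion. Ddx6 was highest at 6.70 ± 0.219 CPM per kb (SD, n = 2 libraries), followed by Xrn2 at 4.62 ± 0.158 and Dcp2 at 4.31 ± 0.116 CPM per kb. Edc4 (2.27 ± 0.0617), Patl1 (2.09 ± 0.346), Dcp1a (2.02 ± 0.114) and Lsm1 (1.87 ± 0.240 CPM per kb) came next, and neighbours in this order overlapped. Xrn1 stood at 1.59 ± 0.0154 CPM per kb, below all values of these genes and above Dcp1b at 0.955 ± 0.0310 and Edc3 at 0.131 ± 0.0273 CPM per kb. After depletion Xrn1 was at 0.231 ± 0.00348 CPM per kb, below Dcp1b at 0.944 ± 0.0543 and next to Edc3 at 0.180 ± 0.0427 CPM per kb. Counts cover the whole gene, so polymerase paused near the start adds to these levels.

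The genes around Xrn1 were measured in the same libraries. Atr, which encodes a DNA damage checkpoint kinase, ends 2.98 kb before the start of Xrn1 on the same strand. It had 19.5 and 17.7 CPM at 0 h against 17.8 and 18.2 CPM at 6 h, a log2 fold change of -0.05 ± 0.16. The nearest tested gene beyond Xrn1, Gk5, starts 61.6 kb after its end and had 258 and 233 CPM against 225 and 256 CPM (-0.03 ± 0.07). Both genes overlapped between conditions, and their 95% intervals reached no lower than -0.38 for Atr and -0.17 for Gk5. No tested gene starts within 1 kb of Xrn1 on the other strand.

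**Figure D4:**
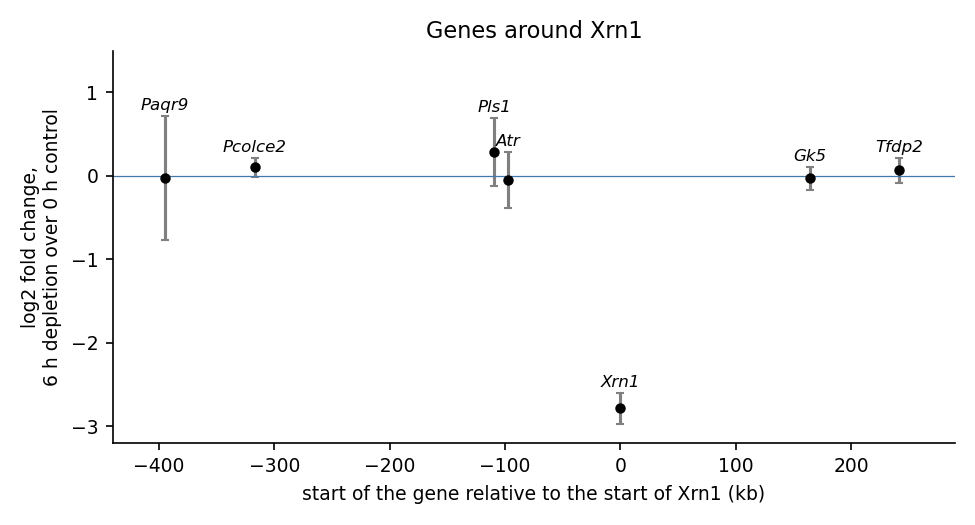
Log2 fold change (points) with 95% interval (bars) of the tested genes that start within 400 kb of the start of Xrn1, against the distance between starts in kb. Xrn1 lies at -2.79, and the intervals of its 6 neighbours all include 0.

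Other genes of mRNA decay were taken from 6 lists of 78 genes, of which 75 had a row and 74 were tested. None was called lower or higher at 2-fold by edgeR, beside 0.321% and 0% of all genes. Without the fold threshold 0 were lower and 1 was higher, beside 1.40% and 1.11% of all genes. At an unadjusted p under 0.05 edgeR gave 3 lower and 5 higher, beside 7.66% and 8.53% of all genes, and DESeq2 0 and 1, beside 2.06% and 2.15%. The 1 gene higher without the fold threshold is a slightly larger share of the 74 than the 1.11% of all genes. None of the other counts is a larger share of the 74 than that of all genes. The median log2 fold change of the 74 was 0.01, against -0.002 for all genes.

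The gene that rose was Tnrc6b, a scaffold of miRNA silencing, and its change was small. It had 346 and 352 CPM at 0 h against 405 and 403 CPM at 6 h (log2 fold change 0.21 ± 0.05, edgeR quasi-likelihood adjusted p = 0.0248). Both depletion libraries lay above the controls, and the length class of the gene had a median of 0.10. The call was lost with the recovered size factors (0.11) and in DESeq2, and without either depletion library, where the edgeR adjusted p was 0.257 and 0.278. It was also lost with scaling by library totals (edgeR quasi-likelihood adjusted p = 0.0756).

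By function, the lists moved little. The 17 tested decapping and Lsm genes had a median of -0.04, from Lsm5 at -0.59 ± 0.20 to Lsm3 at 0.14 ± 0.20, both subunits of Lsm rings. Lsm5 was counted 45 and 56 times at 0 h against 61 and 50 times at 6 h, and its libraries did not overlap, but it did not pass the test (edgeR quasi-likelihood adjusted p = 0.113). The 18 deadenylation genes (median 0.02) ran from Tob1 at -0.29 ± 0.10 to Btg2 at 0.26 ± 0.12, both adaptors that bring the deadenylase to mRNAs. The 17 tested exosome and Ski complex genes (median -0.04), which degrade RNA from the 3′ end, ran from Exosc5 at -0.29 ± 0.10 to Exosc8 at 0.10 ± 0.17. The 9 nonsense-mediated decay genes (median 0.02) ran from Smg9 at -0.13 ± 0.16 to Smg1 at 0.16 ± 0.06. The 9 tested genes of miRNA and AU-rich element decay (median 0.05) ran from Zfp36l1 at -0.12 ± 0.07 to Tnrc6b. The 4 genes that encode Dxo and nuclear partners of Xrn2 (median 0.10) ran from Cdkn2aip at 0.00 ± 0.14 to Cdkn2aipnl at 0.14 ± 0.14. With the recovered size factors, Lsm5, Exosc5 and Tob1 passed the test without a fold threshold, at -0.69, -0.39 and -0.39. These factors placed 5.89% of all genes lower by the same rule, a larger share than 3 of 74.

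**Figure D5:**
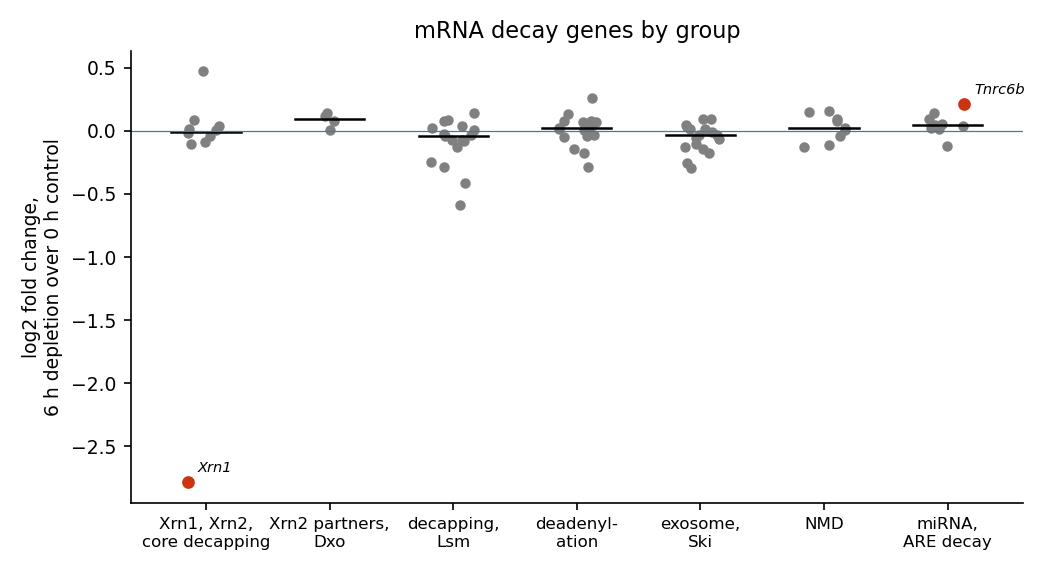
Log2 fold change (6 h depletion over 0 h control) of the 10 genes and of 74 other mRNA decay genes, 1 point per gene, grouped by function, with a bar at the median. Red marks Xrn1, called lower at 2-fold, and Tnrc6b, higher at an adjusted p under 0.05 without a fold threshold.

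The genes whose pattern was most like that of Xrn1 were sought among 7648 tested genes with a control mean of at least 20 CPM. The measure was the Euclidean distance of log2 CPM over the 4 libraries, each gene centred on its own mean, so it mostly ranks genes by how far they fell. The nearest were Zfp445, a zinc-finger protein of imprint maintenance (distance 0.47), Jagn1, a protein of the endoplasmic reticulum (0.74), the noncoding gene 2810403D21Rik (1.13), Tacr3, the neurokinin B receptor (1.25), and Polq, a polymerase of DNA break repair (1.28). Zfp445 had 21.9 and 20.7 CPM at 0 h against 4.54 and 3.38 CPM at 6 h. Its log2 fold change was -2.41 ± 0.22 (SE), against -2.79 ± 0.09 for Xrn1, and its replicates were farther apart than those of Xrn1. Zfp445 rested on 27 and 19 counts at 6 h, and whether the 2 falls differ was not tested. Of these 5 genes, Polq held CTCTATGG among the promoters printed above.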

How the data were processed

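PRO-seq libraries of mES cells with AID-tagged Zfp574 (2 at 0 h, 2 after 6 h of IAA) were analysed from the counts the authors deposited. Per the labels and methods, reads of 36 bp carried an 8-bp molecular identifier, were trimmed (cutadapt 1.18), mapped to mm10 at a unique best position (Bowtie 1.2.2), collapsed by identifier and counted by the position of the RNA 3′ end over a gene set with CAGE-corrected starts. Unique mapping undercounts duplicated sequence. From the authors' DESeq2 table, which also holds their fold changes and p-values (not used), only the deposited mean normalized signal was taken, to recover size factors (0.699 and 0.740 at 0 h, 1.32 and 1.24 at 6 h). These differ between replicates, whereas the methods describe 1 Drosophila spike-in factor per condition, so they are not treated as spike-in factors here.

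Genes were filtered with filterByExpr (11853 of 12486 kept), scaled by TMM and compared with edgeR 4.0.16 in R 4.3.3 (glmQLFit, glmQLFTest, two-sided, Benjamini-Hochberg over all genes tested). Calls required an adjusted p under 0.05 and, where stated, at least 2-fold. SE is that implied by the F statistic. Replicates are labelled biological. Replicates differed by more than sampling noise (chi-square per degree of freedom 1.85 and 1.49). Intervals cover the spread of these libraries. Alternatives used DESeq2 1.42.0, limma 3.58.1, other scalings and filters, a replicate block, and each library left out. The fit was tested on simulated data. Named genes were the 10 members, Zfp574, decay genes that were called or extreme in their list, the 5 genes most like Xrn1 and its neighbours. Members and lists were chosen with earlier results of these data known, and some other decay genes are not reported here. Positions come from GENCODE M21 and promoters from RefSeq (GRCm38.p6), matched by symbol, chromosome and strand for 9292 genes, and neither has the authors' corrected starts.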

Additional observations from a re-analysis of the deposited data

How the results depend on the processing

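Across 13 alternatives, Xrn1 was called lower in each and no other member was called at 2-fold. Its log2 fold change ranged from -2.80 to -2.77 over the fits that each left out 1 library, and was -2.89 with the recovered size factors, which moved the median of the 10 genes to -0.11, where the median of all genes was also -0.11. Over the fits without 1 library that median ranged from -0.053 to 0.018. Other mRNA decay genes were never called at 2-fold. Such calls were rare among all genes. With all 4 libraries they ran from 8 of 7414 lower (mean count of at least 100) to 57 of 11853 lower (recovered size factors). At most 1 gene was called higher in these fits. Without a fold threshold, the recovered factors gave 3 decay genes lower and 0 higher (5.89% and 0.413% of all genes). Library totals gave 0 higher (0.540%) and DESeq2 0 higher (0.118%), and the cause was not tested for DESeq2. The higher count moved in 6 of the 13 alternatives. The rest of these were fits without 1 library, in which it went up or down. Over all genes tested, replicate deviations were barely correlated between conditions (0.04). Sampling noise of low counts lowers this value, so it cannot settle whether replicate numbers pair libraries. With the replicate block Xrn1 was at -2.79. The count of other decay genes higher without a fold threshold was then 1, beside 366 of all 11853 genes. Edc3 was not tested with a mean count of at least 100, which it does not reach. Edc3 rests on fewer than 60 counts per library, and in fits with 1 library left out the lone library of a condition was assumed to vary like the other condition.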
